A study of Mus musculus with 6 samples.

Results

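Receptors for hormones, amines, peptides and lipids were examined in 2 mouse pheochromocytoma cell lines. The set was a list of 55 named genes, and a gene entered when the array's annotation gave it a probe set of its own, that is, one mapped to exactly 1 gene symbol. This left 47 of the 19937 genes that could be named in this way. Adra1a, Adra2a, Adra2b, Adrb1, Ednra, Adora1, Adora2a and Adora2b, the other 8 names, were not analysed here. Of the 47, 45 encode G-protein-coupled receptors and 2 do not: Htr3a encodes a serotonin-gated ion channel, and Ramp1 an accessory protein that makes the calcitonin receptor-like receptor a receptor for calcitonin gene-related peptide (CGRP).

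The data were 6 Affymetrix Mouse Gene 1.0 ST arrays, each with RNA of 1 sample, 3 from MTT cells and 3 from MPC cells. Per the study's methods, MPC cells come from Nf1 knock-out mice and are a well differentiated line, and MTT cells were derived from liver metastases of MPC cells and grow faster. Neither line was treated, and each group is 1 established line, so the comparison is between these lines and not between metastatic and other tumours in general. The labels give the line in the sample title and the cell type, while all 6 carry the same metastatic source, disease status and growth text, which name MTT cells. Whether a line's 3 samples were grown as separate cultures is not stated in the sources used here. The p-values therefore rest on a spread between samples that may be technical. The values are log2 signals after the RMA method, which corrects background, equalises the distributions of the arrays and combines the probes of each probe set into 1 value.

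G-protein-coupled receptors cross the plasma membrane and, once bound by a ligand, switch on a heterotrimeric G protein. Gs raises cyclic AMP, Gi and Go lower it and close calcium channels, and Gq and G11 act through phospholipase C and calcium. Chromaffin cells of the adrenal medulla, from which pheochromocytoma arises, release catecholamines when acetylcholine reaches nicotinic and muscarinic receptors, and the peptide PACAP also drives this release through its own receptor. Alpha-2 adrenergic, neuropeptide Y and opioid receptors on the same cells act back on secretion.

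Chromaffin genes were bright in both lines. Averaged over 10 measured chromaffin markers, MTT arrays gave log2 signals of 11.46 to 11.48 and MPC arrays of 11.44 to 11.47, with tyrosine hydroxylase (Th), the first enzyme of catecholamine synthesis, at 13.46 ± 0.02 (SD, n = 3) and 13.49 ± 0.03 (SD, n = 3). Of the 10, Slc18a1 and Gata3 were higher and Chgb was lower in MTT cells, by log2 differences of 0.27, 0.19 and -0.15, that is 3 of 10 beside 7.87% of all genes tested. Pnmt, the enzyme that makes adrenaline, read only 6.97 ± 0.04 (SD, n = 3) and 7.08 ± 0.01 (SD, n = 3). None of 32 markers of adrenal cortex, thyroid, liver, endothelium, fibroblasts, leukocytes and Schwann cells passed the test between the lines (limma, adjusted over all genes), and 2 had an unadjusted p under 0.05, beside 20.5% of all genes. Their mean signals ran from 4.33 for Cyp3a11 to 8.74 for Col1a1, with a median of 7.12.

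Few of the receptors read high. The median over all probe sets and arrays was 7.74, and 21 of the 47 genes had a mean above it (44.7%), against 57.3% of all genes tested. Adcyap1r1, Npy2r, Ptger3, Cnr1, Calcrl, Drd2 and Adra2c had means above 10. Chrm3 followed at 9.53, and 13 genes lay between the median and 9. These 13 were Ptger1, Agtr2, Chrm1, Drd1, Ptger4, Vipr1, Hrh1, Chrm4, Oprd1, Gipr, Htr1b, Crhr1 and Chrm2. The remaining 26 were below the median, down to 4.91 for Mc2r, the corticotropin receptor of the adrenal cortex. A probe set carries a background of its own, so that signals do not rank genes by transcript number. Of the 32 markers of other cell types, 8 also had means above the median. Of the 47 genes, 9 had a mean above the 8.74 of Col1a1. A signal under the median, or between it and 8.74, is not shown to lie above background.

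**Figure D1:**
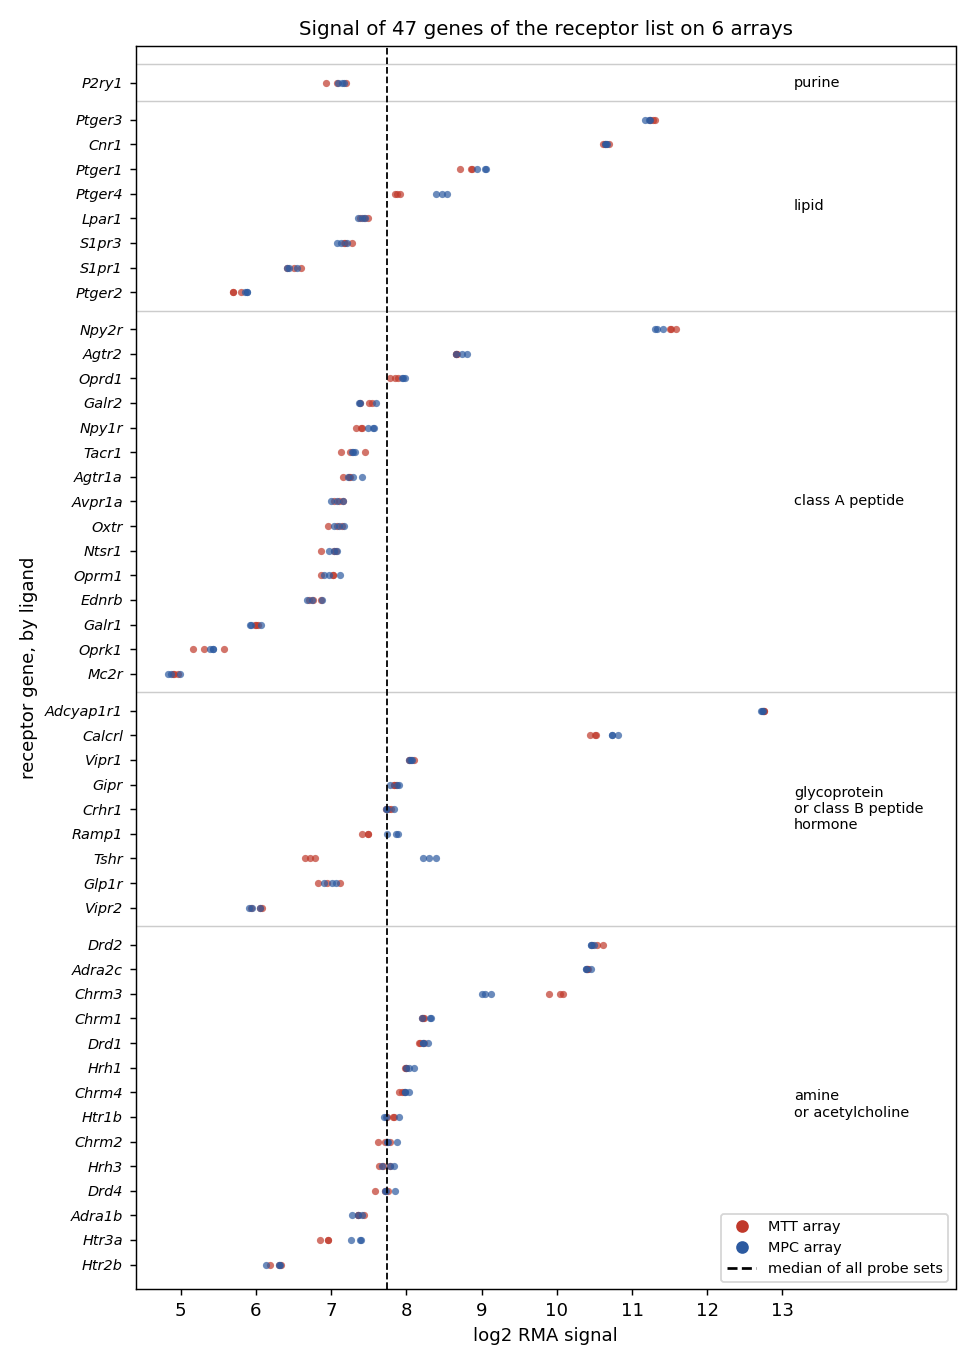
log2 RMA signal (horizontal axis) of the 47 genes (vertical axis), grouped by the ligand of the receptor. Each point is 1 array, red for MTT and blue for MPC, and the dashed line marks the median of all probe sets, 7.74. Most genes lie within 1 unit of that line or below it, and 7 lie above 10. Signals of different genes are not comparable as levels.

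By ligand, 9 of 14 genes for amines or acetylcholine and 3 of 15 for peptides other than class B hormones had means above the median. Of the 9 genes for thyrotropin and class B peptide hormones (a receptor family that binds long peptides such as PACAP and CGRP) 5 were above it, and of 8 lipid receptors 4. The single purine receptor measured, P2ry1, was below it. Differences between these classes were not tested, and the counts depend on the level chosen, since 42 of the 47 genes exceeded the lower quartile of all probe sets and only 10 the median of the named genes.

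MTT and MPC cells differed in 8 of the 47 genes, 2 higher and 6 lower in MTT cells (limma on the log2 signals, two-sided, Benjamini-Hochberg adjusted p under 0.05 over all 19937 genes). This is 17.0% of the genes, beside 7.87% of all genes tested. Higher in MTT cells were 4.26% of the 47 and 3.93% of all genes, and lower were 12.8% and 3.94%. The genes were chosen with earlier results of these data known. The shares are therefore a description, and an excess over all genes was not tested. The groups of 3 arrays did not overlap for 14 of the 47 genes (29.8%), a share near the 27.2% of all genes. The median log2 difference, MTT minus MPC, was -0.02 over the 47 genes and -0.01 over all genes, and the median size of the difference 0.05 for both. A log2 difference of at least 1 in size was seen for Tshr only. The higher genes were Chrm3 and Npy2r, and the lower ones Tshr, Ptger4, Htr3a, Ramp1, Calcrl and Npy1r.

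**Figure D2:**
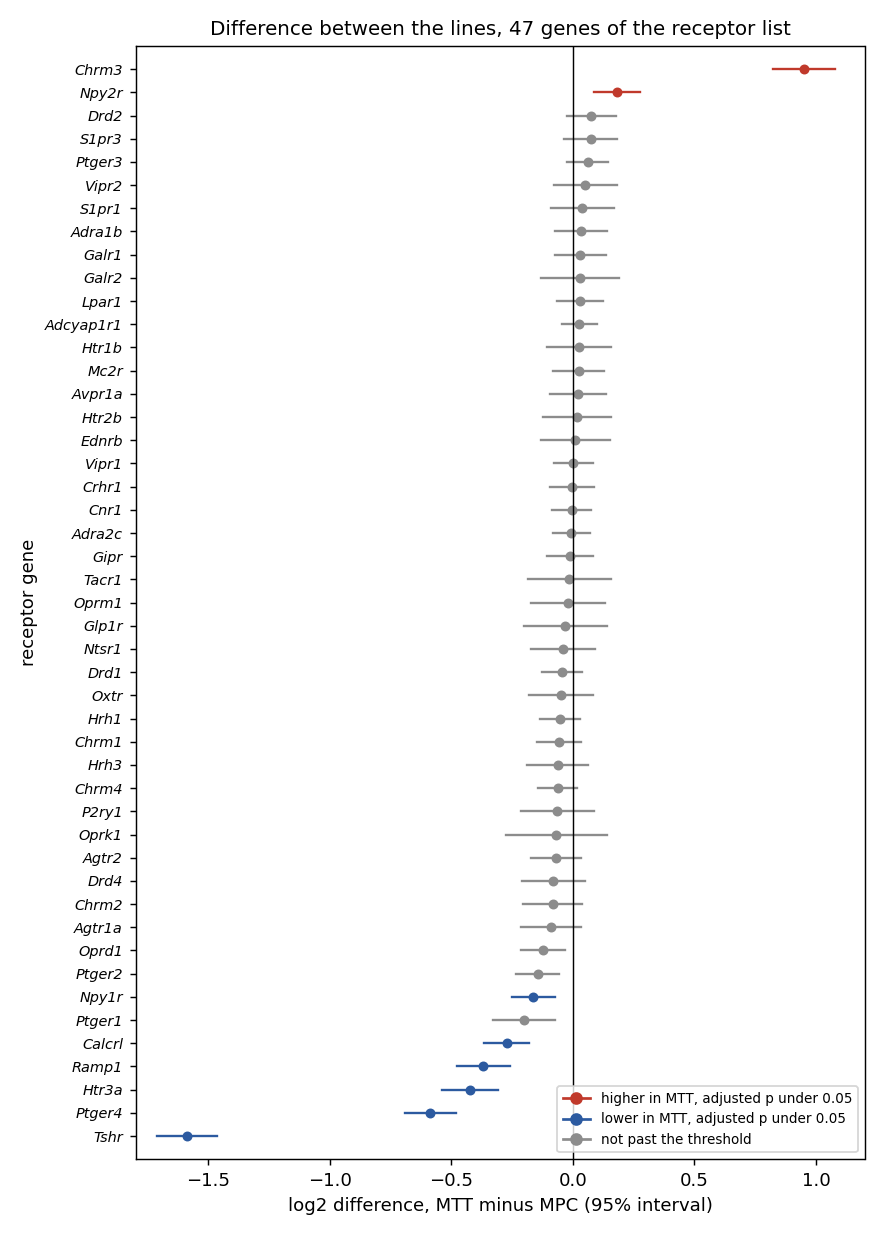
log2 difference between the lines (MTT minus MPC, horizontal axis) of the 47 genes (vertical axis, in order of the difference). Points are estimates from 3 arrays of each line and bars are 95% intervals. Blue genes were lower and red genes higher in MTT cells past the threshold, from -1.59 for Tshr to 0.95 for Chrm3, and grey genes did not pass.

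Tshr, the Gs-coupled receptor for thyrotropin, the pituitary hormone that drives the thyroid, showed the largest difference of the list. Its log2 signal was 6.65, 6.78 and 6.72 on the MTT arrays and 8.31, 8.39 and 8.21 on the MPC arrays. The 3 MPC arrays lay above the median of all probe sets and the 3 MTT arrays below it, where a signal is not shown to exceed background. The MPC values also lay under the 8.74 of Col1a1. Tshr signal was lower in MTT cells, with a log2 difference of -1.59 (standard error 0.05, 95% interval -1.71 to -1.46) and a limma adjusted p = 4.53e-06. It is a difference in signal, and no fold in transcript is given. None of the 4 measured thyroid markers passed: thyroglobulin (Tg), Slc5a5, Pax8 and Nkx2-1 had log2 differences of 0.04, -0.05, -0.02 and -0.02. Tshb, which encodes the specific subunit of thyrotropin, had means of 6.02 in MTT and 6.07 in MPC cells, both under the median, and did not pass (limma adjusted p = 0.783).

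Chrm3 encodes the M3 muscarinic acetylcholine receptor, which couples to Gq and raises intracellular calcium. It read 10.08, 10.04 and 9.90 on the MTT arrays against 9.12, 9.05 and 9.0 on the MPC arrays, and all 6 values lie above the median while the groups do not overlap. Chrm3 was higher in MTT cells by 0.95 (standard error 0.05, 95% interval 0.82 to 1.08), 1.93-fold (limma adjusted p = 3.63e-05). The gene lies on chromosome 13, whose 407 genes above the median signal had a median log2 difference of 0.18, with quartiles at 0.11 and 0.25. Of the 732 genes tested on that chromosome 1 had a larger positive difference than Chrm3, and its difference exceeded that chromosome median by 0.77. The other 3 genes of the list on chromosome 13 did not pass: Drd1 had a log2 difference of -0.05, Agtr1a one of -0.09 and S1pr3 one of 0.07. Their means over the 6 arrays were 8.22, 7.26 and 7.18, signals not shown to exceed background.

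The other 3 muscarinic receptors measured did not pass. Chrm1, which also couples to Gq and lies on chromosome 19, read 8.22, 8.24 and 8.21 on the MTT arrays and 8.21, 8.32 and 8.31 on the MPC arrays, overlapping groups with a 95% interval of the log2 difference from -0.15 to 0.03. The Gi-coupled Chrm4 read 7.96, 7.90 and 7.95 against 7.98, 7.98 and 8.03, without overlap, with an interval of -0.14 to 0.02. Chrm2, also coupled to Gi, read 7.78, 7.62 and 7.72 against 7.87, 7.75 and 7.74, with overlap, and its interval was -0.20 to 0.04.

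Ptger4, the EP4 receptor for prostaglandin E2, couples to Gs. It read 7.92, 7.84 and 7.88 on the MTT arrays and 8.47, 8.54 and 8.39 on the MPC arrays, so that the groups were separated by more than the range of either. These values lie between the median and the 8.74 of Col1a1, where a signal is not shown to exceed background. The log2 difference was -0.59 (standard error 0.05, 95% interval -0.69 to -0.48), lower in MTT cells at a limma adjusted p = 0.000206. Ptger1, the Gq-coupled EP1 receptor, read 8.87, 8.71 and 8.86 in MTT and 9.06, 9.05 and 8.94 in MPC cells. These groups did not overlap, yet the log2 difference of -0.20 did not pass (limma adjusted p = 0.0683). Ptger2, like EP4 a Gs-coupled receptor, had a log2 difference of -0.15 at a signal of 5.73 in MTT and 5.87 in MPC cells (limma adjusted p = 0.0639). Ptger3, which couples to Gi, read 11.30, 11.24 and 11.28 on the MTT arrays and 11.23, 11.17 and 11.24 on the MPC arrays. These groups overlap, and the 95% interval of the log2 difference was -0.02 to 0.15.

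Calcrl and Ramp1 together form the CGRP receptor, and both were lower in MTT cells. Calcrl read 10.51, 10.52 and 10.44 on the MTT arrays and 10.74, 10.82 and 10.73 on the MPC arrays. Its log2 difference was -0.27 (standard error 0.04, limma adjusted p = 0.00553), 1.21-fold. Ramp1 read 7.48, 7.42 and 7.49 on the MTT arrays and 7.74, 7.86 and 7.90 on the MPC arrays, of which only MPC replicates 2 and 3 exceeded the median of all probe sets. For both genes the groups did not overlap. Its log2 difference was -0.37 (standard error 0.05, limma adjusted p = 0.00282), given as a difference in signal, since the MTT values lie under the median. Ramp2 and Ramp3, which turn the same receptor towards adrenomedullin, gave 95% intervals of the log2 difference from -0.03 to 0.12 and from -0.15 to 0.13, both at signals under the median. For Calcb, a CGRP gene, the log2 difference was -0.06, which did not pass (limma adjusted p = 0.464).

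Neuropeptide Y is a peptide that chromaffin cells store with catecholamines, and its receptors Y1 and Y2 both couple to Gi. Npy2r read 11.50, 11.58 and 11.52 on the MTT arrays and 11.41, 11.31 and 11.33 on the MPC arrays. It was higher in MTT cells by 0.18 (standard error 0.04, limma adjusted p = 0.0331). Npy1r went the other way, at 7.39, 7.33 and 7.41 on the MTT arrays and 7.57, 7.56 and 7.5 on the MPC arrays, all under the median. For neither receptor did the groups overlap. Its log2 difference was -0.16 (standard error 0.04, limma adjusted p = 0.0385). Both calls lie near the threshold: in the 6 fits that left out 1 array each, Npy2r lost its call in 5 (adjusted p 0.0334 to 0.124) and Npy1r in 5 (adjusted p 0.0387 to 0.143). Npy2r kept it without MPC replicate 1, and Npy1r without MPC replicate 3. Npy itself had a mean of 12.87 in MTT and 12.82 in MPC cells and did not pass (limma adjusted p = 0.472).

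Htr3a, the serotonin-gated channel, read 6.85, 6.96 and 6.96 on the MTT arrays and 7.38, 7.40 and 7.26 on the MPC arrays. All 6 values are under the median of all probe sets, while the groups do not overlap. The log2 difference was -0.42 (standard error 0.05, 95% interval -0.54 to -0.31), at a limma adjusted p = 0.00182. The G-protein-coupled serotonin receptors Htr1b and Htr2b did not pass, with 95% intervals of the log2 difference from -0.10 to 0.16 and from -0.12 to 0.16.

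**Figure D3:**
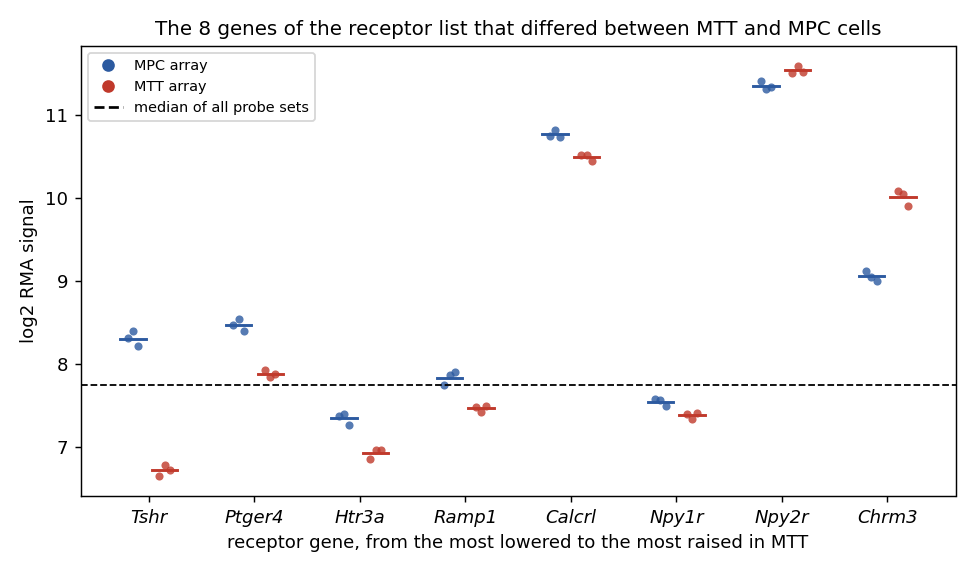
log2 RMA signal (vertical axis) of the 8 genes that passed the test (horizontal axis) on the 3 MPC arrays (blue) and the 3 MTT arrays (red). Points are arrays, bars are means of 3 and the dashed line is the median of all probe sets. The means of Tshr (8.30 in MPC, 6.72 in MTT cells) and Ramp1 (7.83 and 7.46) lie on either side of that line, those of Chrm3, Npy2r, Calcrl and Ptger4 above it and those of Htr3a and Npy1r below it in both lines.

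Stretches of 250 bases before the annotated start of transcription are given for the genes that passed and had a mean signal above the median, and for Ramp1 as the partner of Calcrl, to show what lies in front of receptors that moved in opposite directions. They were taken from RefSeq sequence of GRCm38.p6. Of the 47 genes, 37 matched a stretch. The stretches lie at chr13:10360804-10361053 (- strand), chr3:82548086-82548335 (- strand), chr15:5244188-5244437 (- strand), chr2:84425267-84425516 (- strand) and chr1:91179572-91179821 (+ strand), and are written 5′ to 3′ on the strand of the gene. Capitals mark 2 motifs, read on both strands: the GC box GGGCGG and the GATA motif AGATAA.
Chrm3: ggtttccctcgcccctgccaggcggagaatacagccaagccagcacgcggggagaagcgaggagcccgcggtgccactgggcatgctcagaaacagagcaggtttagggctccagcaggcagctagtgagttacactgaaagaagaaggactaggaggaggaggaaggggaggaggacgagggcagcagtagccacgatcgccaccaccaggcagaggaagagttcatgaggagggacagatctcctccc
Npy2r: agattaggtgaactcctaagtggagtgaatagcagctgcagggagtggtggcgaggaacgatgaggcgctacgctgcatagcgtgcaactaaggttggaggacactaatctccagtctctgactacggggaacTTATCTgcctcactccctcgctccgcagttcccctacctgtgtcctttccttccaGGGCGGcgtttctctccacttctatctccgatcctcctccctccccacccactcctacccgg
Ptger4: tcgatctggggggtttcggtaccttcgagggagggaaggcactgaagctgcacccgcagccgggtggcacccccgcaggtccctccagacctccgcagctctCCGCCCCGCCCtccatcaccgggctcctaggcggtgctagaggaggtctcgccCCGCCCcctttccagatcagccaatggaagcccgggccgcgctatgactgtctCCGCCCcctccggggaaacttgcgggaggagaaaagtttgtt
Calcrl: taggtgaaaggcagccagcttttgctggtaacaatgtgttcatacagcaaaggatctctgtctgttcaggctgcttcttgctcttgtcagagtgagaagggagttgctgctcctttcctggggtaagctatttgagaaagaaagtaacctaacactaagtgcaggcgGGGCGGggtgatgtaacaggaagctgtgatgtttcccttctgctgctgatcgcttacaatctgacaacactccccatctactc
Ramp1: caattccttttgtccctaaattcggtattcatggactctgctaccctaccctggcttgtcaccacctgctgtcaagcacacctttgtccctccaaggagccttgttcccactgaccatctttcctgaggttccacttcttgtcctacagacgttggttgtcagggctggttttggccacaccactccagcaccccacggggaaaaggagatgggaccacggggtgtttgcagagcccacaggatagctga
The Ptger4 stretch held 4 GC boxes, a pair of which share 1 base, and 19 CpG dinucleotides, and those of Npy2r and Calcrl held 1 GC box each. Chrm3 and Ramp1 held none in this window. A GC box occurred in 32.7% of all 32851 stretches of this length, counted by stretch. Counted by gene, 23 of the 37 matched genes of the list (62.2%) had it in any of their stretches. These shares are in different units and were not compared. The GATA motif was found in the Npy2r stretch and in 9.99% of all stretches. The letters TGACG, the core of the element through which cyclic AMP acts, and the TATA box TATAAA were in none of these 5, and in 17.8% and 12.4% of all stretches. CpG dinucleotides numbered 10 for Chrm3, 12 for Npy2r, 3 for Calcrl and 4 for Ramp1, beside a median of 6 over all stretches.

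Receptors were also grouped by the G protein that each mainly uses. Of 12 measured Gs-coupled receptors, 3 were lower (Tshr, Ptger4 and Calcrl) and none was higher, beside 3.94% lower and 3.93% higher among all genes. An unadjusted p under 0.05 was found for 4 of the 12, beside 20.5% of all genes. Of 16 Gi-coupled or Go-coupled receptors 1 was higher and 1 lower, Npy2r and Npy1r, the calls near the threshold. Of 14 receptors of Gq or G11, 1 was higher (Chrm3) and none lower in limma's test, with 2 at an unadjusted p under 0.05, a share below that of all genes. The 3 receptors with several or other partners, Lpar1, S1pr3 and Agtr2, did not pass limma's test, and none had an unadjusted p under 0.05. The median log2 differences were -0.02, -0.01 and -0.03 for the first 3 classes, beside the -0.01 of all genes. Differences between the classes were not tested, and neither was an excess over all genes, since the genes were chosen with earlier results known.

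Of the 7 genes with means above 10, 5 did not pass: Ptger3, described above, and Adcyap1r1, Adra2c, Cnr1 and Drd2. Adcyap1r1, the PACAP receptor PAC1, gave 12.76, 12.74 and 12.76 on the MTT arrays and 12.73, 12.71 and 12.74 on the MPC arrays. Although these values do not overlap, the log2 difference of 0.03 (95% interval -0.04 to 0.10) did not pass. Adra2c, the alpha-2C adrenergic receptor that restrains catecholamine release, read 10.40 ± 0.01 (SD, n = 3) and 10.41 ± 0.04 (SD, n = 3), with a 95% interval of the difference from -0.08 to 0.07. Cnr1, the CB1 cannabinoid receptor, read 10.65 ± 0.04 (SD, n = 3) and 10.65 ± 0.01 (SD, n = 3), with an interval of -0.08 to 0.07. Drd2, the Gi-coupled dopamine D2 receptor, read 10.46, 10.54 and 10.61 on the MTT arrays and 10.49, 10.45 and 10.45 on the MPC arrays, overlapping groups with an interval of -0.03 to 0.18. The Gs-coupled Drd1 read 8.19, 8.17 and 8.23 against 8.22, 8.22 and 8.28, also overlapping, with an interval of -0.13 to 0.04.

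Further receptors above the median did not pass either. Oprd1, the delta opioid receptor, had groups that did not overlap, at 7.78, 7.84 and 7.89 on the MTT arrays and 7.94, 7.95 and 7.99 on the MPC arrays. Its log2 difference of -0.12 had an unadjusted p of 0.0139 and did not pass (limma adjusted p = 0.114). Agtr2, the angiotensin type 2 receptor, read 8.67, 8.66 and 8.66 on the MTT arrays and 8.65, 8.73 and 8.81 on the MPC arrays, which overlap. The histamine receptor Hrh1 read 8.0, 7.98 and 7.99 against 8.0, 8.04 and 8.09, without overlap by a margin smaller than the rounding. Vipr1, a receptor for vasoactive intestinal peptide, is the only gene of the list with 2 probe sets, whose log2 differences were 0.00 and 0.04. Over the 39 genes that did not pass, the 95% interval stayed within 0.25 log2 units of 0 for 37. The exceptions were Ptger1, whose interval reached -0.33, and the kappa opioid receptor Oprk1, whose interval reached -0.28 at a signal of 5.35 in MTT and 5.42 in MPC cells. Of these 39 genes, 22 had means under the median, where a narrow interval does not show an unchanged transcript. The same holds for means between the median and the 8.74 of Col1a1.

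The machinery that receptors act through was taken from a list of G protein subunits, phospholipases C beta, RGS proteins (which end G protein signals), receptor kinases, arrestins and their helpers. Of 47 measured genes 7 were higher and 3 lower in MTT cells (21.3%, beside the 7.87% of all genes). This list too was chosen with earlier results of these data known, and an excess was not tested. The list was bright: 39 had a mean above the median signal (83.0%, against 57.3% of all genes). When only genes above the median were tested, 11 of these 39 passed, beside 2219 of 11415 genes. The 6 with the smallest p were Rgs5, Plcb4, Gng11, Plcb3, Gnb4 and Grk6. Rgs5 had a mean of 9.11 in MTT and 8.87 in MPC cells (limma adjusted p = 0.0029). Of the phospholipases downstream of Gq, Plcb4 was higher by 0.21 (limma adjusted p = 0.00499), while Plcb3, on chromosome 19, had a log2 difference of -0.27 (limma adjusted p = 0.00746). The median log2 difference of genes above the median signal on chromosome 19 was -0.11. Gnaq, the G protein partner of Chrm3, also lies there and had a log2 difference of -0.12, which did not pass (limma adjusted p = 0.0947).

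The G protein subunits Gng11 and Gnb4 were higher by 0.46 and 0.25, the former at a signal under the median in both lines. Grk6, a kinase that phosphorylates active receptors, lies on chromosome 13 and was higher by 0.21. Without MTT replicate 1, neither Gnb4 (limma adjusted p = 0.0575) nor Grk6 (limma adjusted p = 0.0584) passed, and neither did with ordinary variances or with all probe sets in the adjustment. Gng11 and Plcb3 also lost their calls with ordinary variances. Rgs5 and Plcb4 kept theirs in every alternative. The counts of this list depend on the fit: without the genes of chromosomes 13 and 19, 6 of 39 passed, and without MTT replicate 1, 4 of 47. With ordinary variances in place of limma's moderated ones, 3 passed.

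**Figure D4:**
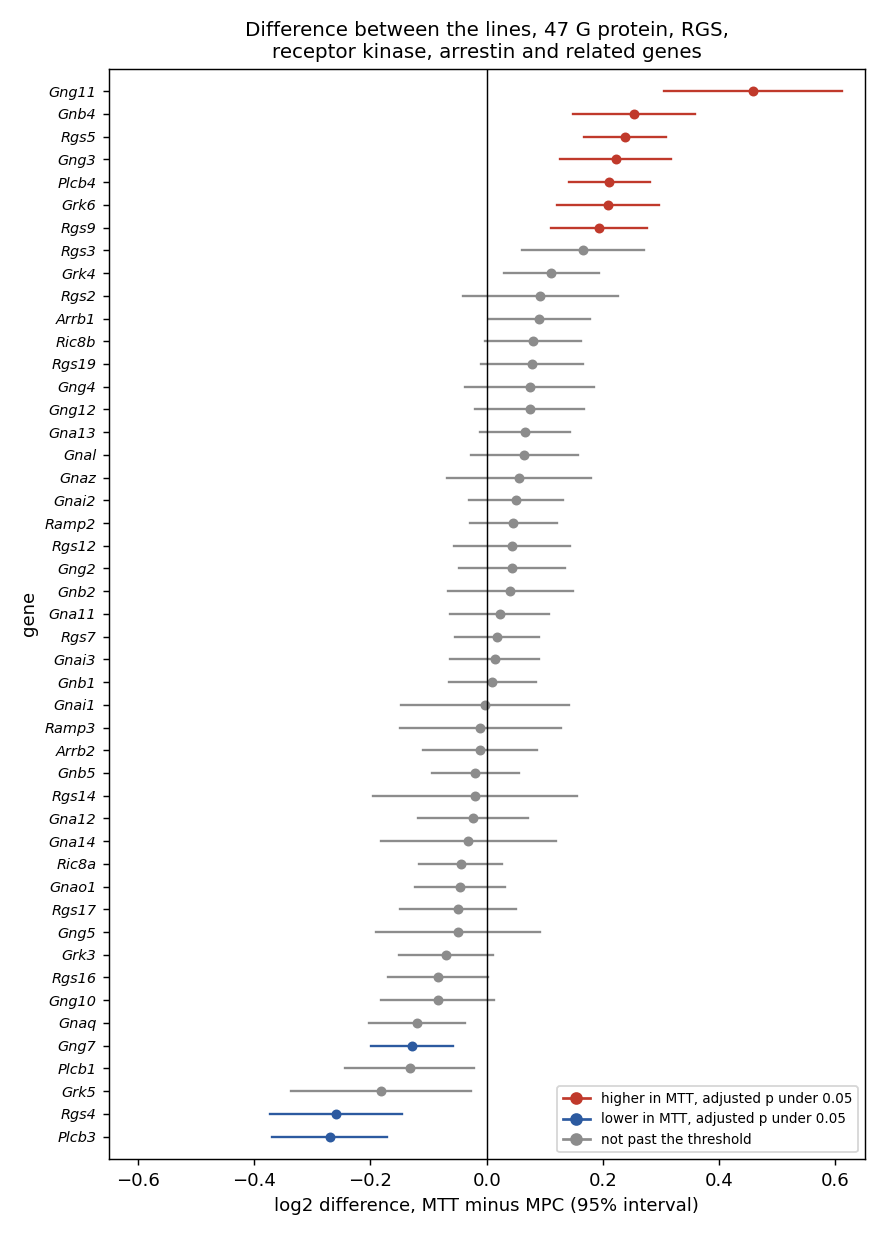
log2 difference between the lines (MTT minus MPC, horizontal axis) of 47 genes of G protein subunits, RGS proteins, phospholipases C beta, receptor kinases, arrestins and helpers (vertical axis). Points are estimates from 3 arrays of each line and bars are 95% intervals. The 7 red genes were higher and the 3 blue genes lower in MTT cells, from -0.27 for Plcb3 to 0.46 for Gng11.

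Of 43 measured genes of ligands, and of enzymes that make or cut them, 1 was higher and 2 were lower (6.98%, a share near the 7.87% of all genes). Chat, which makes acetylcholine, was lower by a log2 difference of -0.32, with means of 7.25 in MTT and 7.56 in MPC cells, both under the median (limma adjusted p = 0.00458). Dagla, on chromosome 19, which makes the endocannabinoid that Cnr1 binds, was lower in MTT cells, with -0.21 as its log2 difference (limma adjusted p = 0.0141), but leaving out 1 array at a time removed it from the passing genes in 3 of 6 fits, those without MTT replicate 2, MPC replicate 1 or MPC replicate 2 (adjusted p 0.0185 to 0.0646). Ece1, which activates endothelins, was higher by 0.19 (limma adjusted p = 0.0144) and was likewise lost in 3, those without MTT replicate 2, MTT replicate 3 or MPC replicate 1 (adjusted p 0.0279 to 0.0652). Without MTT replicate 2 or without MPC replicate 1, only Chat of the 43 passed. With ordinary variances Chat lost its call, and only Ece1 passed.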

How the data were processed

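Gene expression was measured in 3 MTT and 3 MPC samples on Affymetrix Mouse Gene 1.0 ST arrays. The authors deposited log2 values after RMA (Partek and R per the methods, Affymetrix Expression Console per the submitters' processing notes; for versions and genome build: not given in the sources used here). The Z-scores named in the methods are not in them. Of 34760 probe sets in that file, 21640 have exactly 1 symbol, 1321 several, and 11799 are unnamed here; 21553 matched RefSeq genes of GRCm38.p6 by gene ID, used for symbols and chromosomes. Of 954 genes with several probe sets the brightest was used. Differences between lines were computed with limma 3.58.1 (lmFit, eBayes) in R 4.3.3 with the package data.table (1.17.8); figures were drawn with Python 3.11.15 and matplotlib 3.10.9. The test was checked on simulated data with independent noise on each array, which does not cover paired or technical samples. Arrays have no counting depth, and precision is limited by their number. The genes and lists were chosen with earlier results of these data known. Values on every array are given for receptor genes past the threshold and for the 10 above the median signal with the largest differences among the rest; further receptors are examples chosen after their values were seen. Of the partner and ligand lists up to 6 genes past the threshold are named, plus partners of such receptors. The alternatives were other variance estimates, the replicate number as a block, probe set means, a filter on dim genes, 2 normalizations, all probe sets, 2 chromosomes left out, and each array left out.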

Additional observations from a re-analysis of the deposited data

How the results depend on the processing

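Of the 8 receptor genes that passed, 6 (Tshr, Chrm3, Ptger4, Htr3a, Ramp1 and Calcrl) stayed past the threshold in every alternative that they entered, out of 15 in all. In the linear model with ordinary variances, Htr3a, Ramp1 and Calcrl passed only narrowly (adjusted p = 0.0454, 0.0495 and 0.0494). No direction reversed among the genes named by the rule. Npy2r and Npy1r lost their calls in 8 and 11 alternatives, and Ptger1 gained one with a mean-variance trend, as did Ptger1 and Oprd1 when only genes above the median signal were tested. The count of 8 was 6 to 8 in the other alternatives and 6 to 7 when 1 array was left out. Over all genes, 1569 became 2416 with a mean-variance trend and 824 with ordinary variances. The count was 891 to 1276 when 1 array was left out (891 without MTT replicate 2). When all probe sets entered the adjustment, 942 of 34760 passed, a count of probe sets and not of genes. Of the G protein list's 10, 3 remained in number with ordinary variances, 4 with all probe sets, 6 without chromosomes 13 and 19 and 4 to 9 when 1 array was left out. Of the ligand list's 3, the count was 1 with ordinary variances, 1 with all probe sets and 1 to 3 when 1 array was left out. The 21 genes above the median were 10 against the median of named genes, 42 against the lower quartile and 20 to 22 when 1 array was left out. The cause was not tested. Whether the replicate numbers pair the samples was not settled, and the main fit used no block. Deviations of same-numbered arrays from the means of their lines correlated at 0.12, 0.07 and 0.25. Each MTT array correlated best with the MPC array of its own number. With the replicate block 1501 genes and 6 of the receptor genes passed. Npy2r (limma adjusted p = 0.0644) and Npy1r (limma adjusted p = 0.0666) did not. Signal over background limits the reading of the 26 genes under the median, and of those between it and the 8.74 of Col1a1.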
